A study of Homo sapiens with 18 samples.

Results

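The condensin subunits and the type II topoisomerases are 10 genes of the 58884 gene identifiers that were counted, and the rule that defines them uses their names and no measured value, although it was set with earlier results of these data known. They are TOP2A and TOP2B, the SMC core subunits SMC2 and SMC4, the condensin I subunits NCAPD2, NCAPG and NCAPH, and the condensin II subunits NCAPD3, NCAPG2 and NCAPH2. All 10 passed the filter on low counts in every comparison, and each was followed through all 18 libraries. The study profiled how inhibitors of poly(ADP-ribose) polymerases (PARP) differ from each other, and sequenced polyadenylated RNA of T47D, an estrogen receptor-positive luminal breast cancer cell line. Cells labeled as genotype WT (line name T47D AAV) and cells labeled PARP1 KO (line name T47D JL) were each treated for 48 hours with DMSO, with niraparib at 10 μmol/L or with olaparib at 10 μmol/L, giving 6 groups with 3 libraries each. Niraparib and olaparib are both clinically used inhibitors of PARP1, an enzyme that marks DNA breaks with poly(ADP-ribose). The knockout is represented by 1 line, so a difference between the genotypes cannot be told apart from a difference between the lines. The study's methods describe separate dishes for each condition, but the labels do not tie the 3 libraries of a group to separate cultures, and all P values measure the spread between these libraries only.

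Type II topoisomerases cut both strands of a DNA duplex, pass another duplex through the gap and reseal it, which removes tangles and supercoils. TOP2A is made mainly in dividing cells, rises toward mitosis and separates sister chromatids, whereas TOP2B is made in dividing and resting cells and works largely at transcribed genes. Condensins are ring-shaped ATPases in which an SMC2–SMC4 pair is closed by a kleisin (NCAPH or NCAPH2) that carries HEAT-repeat subunits (NCAPD2 and NCAPG, or NCAPD3 and NCAPG2). Condensin II is in the nucleus throughout the cell cycle and starts chromosome compaction, and condensin I reaches the chromosomes once the nuclear envelope has broken down.

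Upstream sequences are shown for the 2 members that fell most after niraparib in WT cells, TOP2A and NCAPD2, and for SMC4, whose level did not pass the test there. Each sequence holds the 250 bases before the RefSeq start on the gene's own strand (assembly GRCh38.p14). The TOP2A sequence lies at chr17:40417897-40418146 on the minus strand, the NCAPD2 sequence at chr12:6493852-6494101 on the plus strand, and the SMC4 sequence, from the first of 2 listed starts, at chr3:160399400-160399649 on the plus strand. Capitals mark CCAAT (on the other strand ATTGG), the letters of the CCAAT box, and TTTGAA (on the other strand TTCAAA), the core of the cell cycle genes homology region (CHR), an element known from promoters of genes expressed in G2 and M phase.
TOP2A: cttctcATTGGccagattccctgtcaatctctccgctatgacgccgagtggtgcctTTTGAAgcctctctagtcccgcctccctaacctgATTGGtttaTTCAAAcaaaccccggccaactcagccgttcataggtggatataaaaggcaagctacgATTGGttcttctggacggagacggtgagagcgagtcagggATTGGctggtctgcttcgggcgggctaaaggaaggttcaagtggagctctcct
NCAPD2: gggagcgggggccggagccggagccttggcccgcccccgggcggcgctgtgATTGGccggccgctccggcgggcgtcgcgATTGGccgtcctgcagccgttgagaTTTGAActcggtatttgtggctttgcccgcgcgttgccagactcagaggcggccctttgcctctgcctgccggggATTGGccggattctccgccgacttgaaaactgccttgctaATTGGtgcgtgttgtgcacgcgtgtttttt
SMC4: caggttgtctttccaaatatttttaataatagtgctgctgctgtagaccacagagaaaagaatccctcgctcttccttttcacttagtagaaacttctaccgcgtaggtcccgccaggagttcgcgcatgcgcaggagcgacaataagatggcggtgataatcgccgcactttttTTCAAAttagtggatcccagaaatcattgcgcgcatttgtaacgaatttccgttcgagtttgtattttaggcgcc
TOP2A held 4 CCAAT matches and 2 CHR matches, and NCAPD2 held 4 CCAAT matches and 1 CHR match. SMC4 held 1 CHR match and no CCAAT match. Across 35116 RefSeq promoter windows of 300 bases, 250 before and 50 after the start, CCAAT was present in 34.6%, at least 2 copies of it in 10.8%, TTTGAA in 15.2% and both motifs in 5.90%. At least 4 CCAAT matches together with a CHR match, a combination counted after the matches in the members were seen, occurred in 46 windows (0.131%). RefSeq windows were given for 9 members, and NCAPH2 had no entry. The TOP2B start nearest the 5′ end of the gene had 2 CCAAT matches and 1 CHR match, as had 1 of the 2 NCAPD3 starts, and NCAPH had 1 CCAAT match and no CHR match. NCAPG had 1 CHR match upstream of its start, SMC2 had 1 across the base at the first of 2 starts, and NCAPG2 had 1 after it, and none of these 3 had a CCAAT match. The second starts of SMC2 and SMC4 and the other starts of TOP2B and NCAPD3 had no match of either motif. The E2F letters TTCCCGCC, TTTCGCGC and TTTGGCGC were searched on both strands as well and were found in 1 window of the members, that of NCAPD3 with the CCAAT matches, against 4.24% of all windows. No matches of different motifs overlapped. These matches describe letters and were not tested as binding sites.

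Library totals ran from 28890837 to 52251288 counts, and the members had between 1062 counts (the lowest library of NCAPH) and 68577 counts (the highest library of TOP2A), so counting error was small beside the biological coefficient of variation of 7.04% in the WT fit and 7.42% in the PARP1 KO fit. Both values are common to all genes, and some members varied less between the libraries of a group. In 3 groups 1 library stood apart, with a chi-square per gene against each of the other libraries of its group more than 3 times that between the other pair. These were WT DMSO replicate 1 (17.6 and 19.1 against 3.29), WT niraparib replicate 2 (12.3 and 16.9 against 3.42) and PARP1 KO niraparib replicate 3 (11.8 and 14.7 against 3.14), and their deviations from the group means correlated with each other at 0.63 to 0.67 across genes. A gene is called here where it changed by more than 1.5-fold with an adjusted P below 0.05 in edgeR. Without these 3 libraries 4, 0 and 2 members were called in the WT comparisons, 0 in the PARP1 KO comparisons and between the genotypes, and 3 and 0 in the interactions, against 3, 0, 2, 0, 3 and 0 with all libraries. PARP1 KO olaparib replicate 3 also correlated with the 3 libraries, at 0.46 to 0.58, and PARP1 KO DMSO replicate 1 at 0.46 to 0.49. PARP1 KO olaparib replicate 1 correlated with them negatively (-0.61 to -0.52). No PARP1 KO olaparib library met the rule, with a chi-square per gene of 8.25 to 18.4 between its pairs. Leaving out the 3 libraries therefore does not remove the shared deviation. PARP1 RNA matched the genotype labels, at 291 to 373 counts-per-million (CPM) in the 9 WT libraries and 22.9 to 27.6 CPM in the 9 PARP1 KO libraries. The luminal markers were present throughout, with ESR1 at 112 CPM or more and KRT8 at 2403 CPM or more, and only TFF1, at 3.62 to 8.31 CPM, was low. Among markers of other cells, COL1A1 was detected at 88.3 to 153 CPM, whereas the other fibroblast markers, the basal keratins and the leukocyte markers were below 1 CPM in every library, and TP63, a basal cell factor, was at 1.24 to 2.54 CPM. In WT cells TP63 was called higher with niraparib than with DMSO (0.78) and than with olaparib (0.72), and it was called lower in the niraparib interaction (-1.11). Its part in the results was not tested. The summed level of the 9 luminal markers was 12334 to 12858 CPM in WT cells with DMSO, 8839 to 9760 CPM with niraparib and 9645 to 10063 CPM with olaparib, and 11615 to 14406 CPM in PARP1 KO cells, and its part in the results was not tested.

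Without drug, levels of the members differed over a wide range. On the scale of CPM per kilobase of exon (RPKM), which allows genes to be compared, TOP2A was highest in WT cells with DMSO at 198 ± 13.3 RPKM (SD, n = 3). SMC4 followed at 58.3 ± 1.81 RPKM and SMC2, its partner, stood at 32.0 ± 0.669 RPKM. TOP2B was at 38.1 ± 0.741 RPKM, close to NCAPD3 at 39.9 ± 0.479 RPKM. Of the remaining subunits, NCAPD2 had 21.7 ± 0.128, NCAPG 16.6 ± 1.08, NCAPG2 12.9 ± 0.464, NCAPH2 10.5 ± 0.322 and NCAPH 7.35 ± 0.205 RPKM. On these values no neighbors in this order overlapped in WT cells with DMSO. The NCAPH2 values may be too low, since 19.2% of its exon bases are shared with another gene and reads there were not counted. Its place relative to NCAPG2 is therefore uncertain. After niraparib in WT cells, TOP2A remained first at 72.9 ± 4.34 RPKM, but NCAPD2 moved from rank 6 to rank 9. NCAPH2 moved from rank 9 to rank 6, where it overlapped with NCAPG2, and both its ranks and this overlap carry the same limit. In WT cells with olaparib NCAPG and NCAPG2 overlapped, and in PARP1 KO cells with either drug NCAPD3 and TOP2B overlapped.

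**Figure D1:**
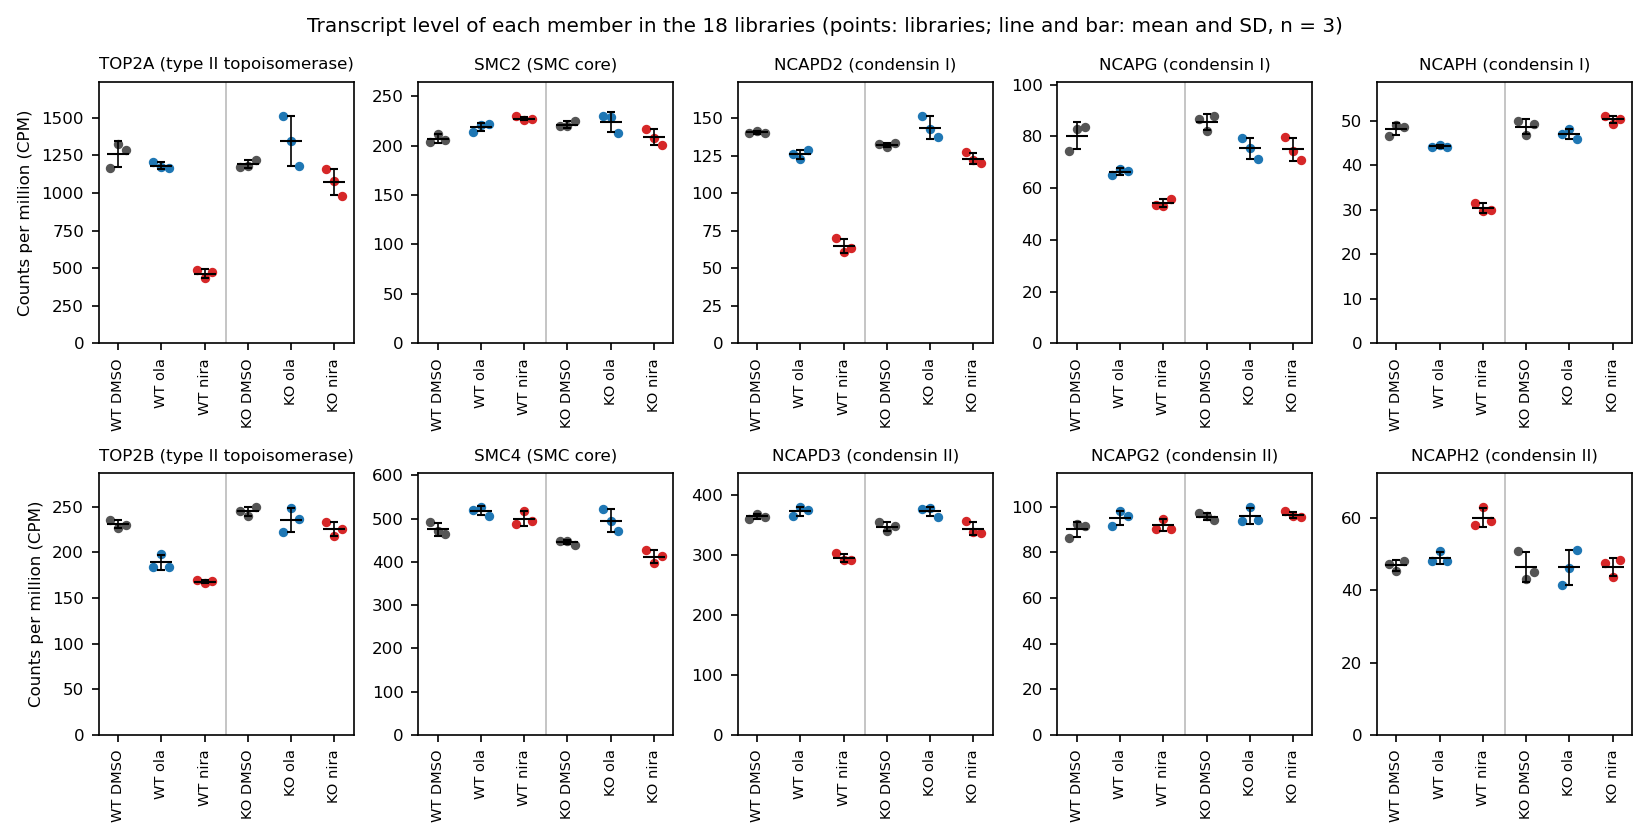
Level of each member in CPM (vertical axis, starting at 0) in the 6 groups (horizontal axis; ola, olaparib; nira, niraparib; KO, PARP1 KO). Points are libraries, and the line with its bar is the mean with the SD of 3 libraries. TOP2A, NCAPD2 and NCAPH are lowest in the 3 WT niraparib libraries, while over all 18 libraries SMC2 lies between 200.4 and 230.2 CPM and NCAPG2 between 86.5 and 99.9 CPM.

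The first comparison asked which members responded to niraparib in WT cells. TOP2A, NCAPD2 and NCAPH fell by more than 1.5-fold and were called. TOP2B, NCAPG and NCAPD3 passed the test with smaller decreases, SMC2 and NCAPH2 were higher, and SMC4 and NCAPG2 did not pass the test. Thus 3 of 10 members were called lower, compared with 5.72% of all genes tested, and 6 were lower at an adjusted P value below 0.05 alone, compared with 18.1%. The 2 members that were higher at that threshold compare with 19.9% of all genes. The libraries of both groups did not overlap for 6 members that were lower, compared with 22.5% of all genes, and for 2 that were higher, compared with 24.2%. The median log2 fold change of the members was -0.38, and that of all genes tested was -0.02.

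TOP2A, the mitotic isoform, had 1166, 1329 and 1288 CPM with DMSO and 487, 434 and 474 CPM with niraparib. All treated libraries were far below all control libraries. The fitted change was -1.44 on the log2 scale (SE 0.057), or 2.71-fold lower (adjusted P = 2.10e-14), and it was the 73rd lowest of the 13526 genes whose mean level reached 1 CPM. TOP2B, the isoform of resting and dividing cells, went from 235, 226 and 230 CPM to 169, 166 and 168 CPM, again without overlap. Its change of -0.46 (SE 0.045, adjusted P = 3.80e-08) was 1.37-fold and therefore not called.

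Of the condensin I subunits, the HEAT-repeat subunit NCAPD2 changed most. Its levels were 140, 141 and 140 CPM with DMSO against 70.3, 60.8 and 63.3 CPM with niraparib, a change of -1.12 (SE 0.054, adjusted P = 4.88e-13, 2.17-fold lower) and the 192nd lowest among the same 13526 genes. NCAPH, the kleisin that holds this complex together, had 46.6, 49.0 and 48.7 CPM against 31.6, 29.7 and 29.9 CPM. It fell by 0.66 on the log2 scale (SE 0.055, adjusted P = 2.87e-09, 1.58-fold lower). NCAPG, the other HEAT-repeat subunit, had 74.2, 83.0 and 83.5 CPM against 53.6, 52.9 and 55.9 CPM, and its change of -0.57 (SE 0.054, adjusted P = 1.75e-08, 1.48-fold lower) ended just short of the limit. It was called when WT DMSO replicate 1 or WT niraparib replicate 3 was left out, and without both WT libraries that stood apart (-0.60).

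The condensin II subunits did not move together. NCAPD3, the HEAT-repeat partner of NCAPG2, went from 360, 369 and 363 CPM to 303, 291 and 292 CPM, a change of -0.30 (SE 0.044, adjusted P = 9.33e-06). NCAPH2, the kleisin of condensin II, was higher in every treated library, at 57.9, 62.9 and 59.1 CPM against 47.1, 45.3 and 48.2 CPM. Its change of 0.36 (SE 0.053, adjusted P = 1.07e-05) carries a limit, since 19.2% of its exon bases lie in exons of another gene of the same strand, where reads were not counted. NCAPG2 had 86.5, 92.4 and 91.8 CPM against 90.3, 94.9 and 90.3 CPM, and the 95% confidence interval of its log2 change ran from -0.08 to 0.13 (adjusted P = 0.746).

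The SMC subunits, which both condensins share, stayed near their control levels. SMC2 had 203, 212 and 206 CPM with DMSO and 229, 226 and 227 CPM with niraparib, a small change of 0.13 (SE 0.044, adjusted P = 0.0183) that missed the threshold without WT DMSO replicate 3 (adjusted P = 0.0628) or without WT niraparib replicate 1 (adjusted P = 0.0583). SMC4 overlapped between the groups, at 492, 471 and 464 CPM against 487, 519 and 495 CPM, with a log2 change of 0.07 (adjusted P = 0.241, 95% confidence interval -0.02 to 0.17).

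Markers of the cell cycle phases also changed, with the G2/M list lower and the S phase list higher. The summed level of 51 G2/M markers, from which the members were left out, was 10898 to 11551 CPM in WT cells with DMSO and 6062 to 6395 CPM with niraparib. Of these markers 40 were called lower (all genes, 5.72%) and 49 were lower at an adjusted P value below 0.05 (all genes, 18.1%). The summed level of 43 S phase markers was 2614 to 2893 CPM with DMSO and 3580 to 3712 CPM with niraparib, and of the 42 that were tested 12 were called higher (all genes, 8.10%) and 31 were higher at an adjusted P value below 0.05 (all genes, 19.9%). The part of cell cycle phase in the changes of the members was not tested, and in bulk RNA fewer cells in a phase and less RNA per cell cannot be told apart.

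**Figure D2:**
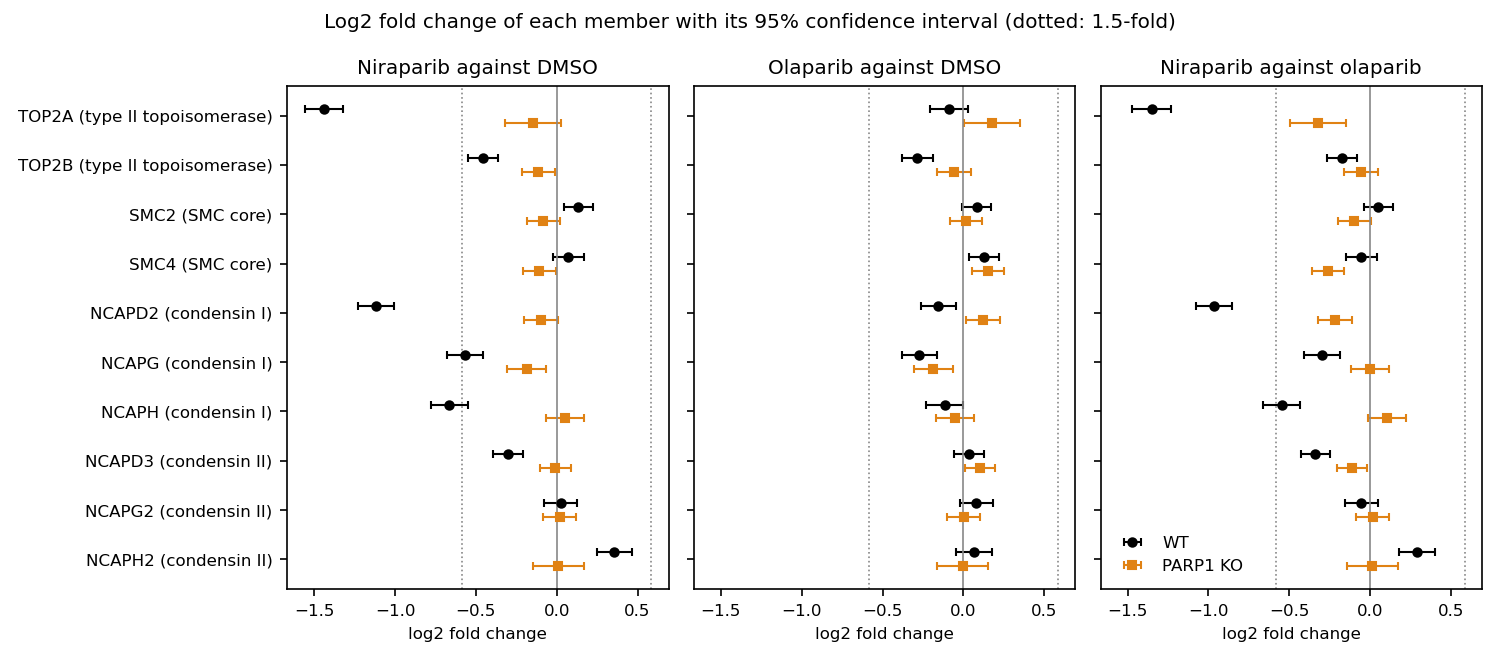
Log2 fold change of each member (horizontal axis) with its 95% confidence interval, by member (vertical axis), for niraparib against DMSO, olaparib against DMSO and niraparib against olaparib. Black circles are WT cells and orange squares PARP1 KO cells, and dotted lines mark 1.5-fold. In the niraparib panel TOP2A (-1.44) and NCAPD2 (-1.12) in WT cells lie farthest from 0, whereas the 10 PARP1 KO values lie between -0.19 and 0.05.

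The second comparison asked the same of olaparib at the same dose and time, and used the same DMSO libraries. No member was called by edgeR or by DESeq2, compared with 4.04% of all genes called in either direction by edgeR, and 5 members had an unadjusted P value below 0.05, compared with 30.2% of all genes. At an adjusted P value below 0.05, 3 members were lower, compared with 7.77% of all genes. The libraries did not overlap with DMSO for 4 members that were lower (all genes, 17.4%) and 2 that were higher (all genes, 18.7%). TOP2B had 184, 198 and 184 CPM, below all DMSO libraries, and changed by -0.28 (SE 0.045, adjusted P = 1.05e-04). NCAPG had 65.0, 67.4 and 66.6 CPM, also below all DMSO libraries, and changed by -0.27 (SE 0.053, adjusted P = 8.67e-04). NCAPD2, at 126, 123 and 129 CPM, changed by -0.15 (adjusted P = 0.0434), a result that missed the threshold in 5 of the 6 fits with 1 library left out, with adjusted P values up to 0.162 without WT olaparib replicate 2.

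TOP2A itself had 1208, 1173 and 1166 CPM with olaparib and overlapped with the DMSO libraries. Its log2 change was -0.09 with a 95% confidence interval from -0.21 to 0.03 (adjusted P = 0.304), which excludes a decrease of the size seen with niraparib. SMC4 was at 521, 527 and 507 CPM, above all DMSO libraries, but its change of 0.13 gave an adjusted P value of 0.0565, and it passed with DESeq2 (0.0226), without WT DMSO replicate 1 (0.0267) and without both WT libraries that stood apart (0.15, adjusted P = 4.23e-05), where TOP2A was at -0.14 (adjusted P = 6.86e-05) and NCAPH at -0.14 (adjusted P = 0.0378). The other 5 members did not pass the test, at -0.12 (NCAPH), 0.04 (NCAPD3), 0.07 (NCAPH2), 0.08 (NCAPG2) and 0.08 (SMC2). The median of the members was -0.03, beside -0.02 for all genes. Of the G2/M markers 1 was called lower (all genes, 1.98%) and 31 were lower at an adjusted P value below 0.05 (all genes, 7.77%), with a summed level of 9793 to 9942 CPM. Of the S phase markers 3 were called higher (all genes, 2.06%) and 26 of 42 were higher at an adjusted P value below 0.05 (all genes, 11.2%), with a summed level of 3238 to 3361 CPM. The part of these markers in the results was not tested.

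Both drugs were compared directly in WT cells. TOP2A (log2 difference -1.35, SE 0.057, adjusted P = 3.41e-13, 2.55-fold lower) and NCAPD2 (-0.96, SE 0.054, adjusted P = 1.51e-11, 1.95-fold lower) were called lower with niraparib than with olaparib, 2 of 10 members compared with 3.33% of all genes. At an adjusted P value below 0.05, 6 members were lower with niraparib, compared with 16.2% of all genes, and 1 was higher, compared with 16.1%. The smaller differences were -0.55 for NCAPH, -0.34 for NCAPD3, -0.30 for NCAPG and -0.17 for TOP2B, and NCAPH2 was higher by 0.29. SMC2 (95% confidence interval -0.04 to 0.14), SMC4 (-0.15 to 0.04) and NCAPG2 (-0.16 to 0.05) did not pass the test, but SMC4 passed without both WT libraries that stood apart (-0.08, adjusted P = 0.0272). The G2/M markers differed between the drugs as well, with 32 of 51 called lower with niraparib, and 5 of 42 S phase markers were called higher (all genes, 5.62%).

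In cells labeled PARP1 KO, no member passed the test for niraparib against DMSO. None was called by edgeR or DESeq2 (all genes, 0.0136% by edgeR), none had an adjusted P value below 0.05 (all genes, 0.109%), and 3 had an unadjusted P value below 0.05 (all genes, 9.14%), namely TOP2B (-0.11), SMC4 (-0.11) and NCAPG. TOP2A had 1175, 1180 and 1220 CPM with DMSO and 1157, 1078 and 983 CPM with niraparib. The treated libraries were lower without overlap, as for 6 members in all (all genes, 8.69%), yet the log2 change of -0.15 had a 95% confidence interval from -0.32 to 0.03 (adjusted P = 0.628), and the change was -0.09 (adjusted P = 0.846) without PARP1 KO niraparib replicate 3, which stood apart. NCAPD2 had 132, 131 and 133 CPM against 127, 122 and 120 CPM (log2 change -0.10, adjusted P = 0.573), and NCAPH had 49.9, 46.8 and 49.4 CPM against 51.2, 49.4 and 50.4 CPM (0.05, adjusted P = 0.836). The lowest of the 10 estimates was that of NCAPG, -0.19 (95% confidence interval -0.31 to -0.07, adjusted P = 0.259), and SMC2 (-0.08), NCAPD3 (-0.01), NCAPH2 (0.01) and NCAPG2 (0.02) were nearer to 0. The median of the members was -0.09, beside 0.01 for all genes, and the summed G2/M level was 10761 to 11048 CPM with DMSO and 9604 to 10755 CPM with niraparib, with 1 marker lower at an adjusted P value below 0.05, as was 1 S phase marker.

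Whether the response to niraparib differed between the genotypes was tested as an interaction over all 18 libraries, in which a positive value means a higher change in PARP1 KO than in WT cells. It was called higher for 3 of 10 members, compared with 3.68% of all genes. The difference was 1.29 for TOP2A (SE 0.105, adjusted P = 8.98e-09), 1.02 for NCAPD2 (SE 0.073, adjusted P = 3.22e-13) and 0.71 for NCAPH (SE 0.076, adjusted P = 4.28e-09). At an adjusted P value below 0.05 it was higher for 6 members, compared with 10.4% of all genes, and these included NCAPG (0.38), TOP2B (0.34) and NCAPD3 (0.29). It was lower for 3 members, compared with 12.5%, namely NCAPH2 (-0.35), SMC2 (-0.22) and SMC4 (-0.18). The SMC4 difference had an adjusted P value of 0.0388 and missed the threshold with 7 of the 12 libraries of these groups left out in turn (up to 0.116 without PARP1 KO niraparib replicate 2) and with RLE size factors (0.0514). NCAPG2 gave -0.01, with a 95% confidence interval from -0.15 to 0.13. Of the G2/M markers 38 were called higher in the same interaction, and of the S phase markers 17 were called lower (all genes, 5.20%).

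Olaparib in PARP1 KO cells called none of the members with edgeR or DESeq2 (all genes, 0.803% by edgeR), although 5 had an unadjusted P value below 0.05 (all genes, 21.1%). NCAPG was lower at an adjusted P value below 0.05 (all genes, 3.87%), at 79.2, 75.4 and 71.3 CPM against 86.9, 82.0 and 88.0 CPM. Its change of -0.19 (adjusted P = 0.0480) missed the threshold in 5 of the 6 fits with 1 library left out, up to 0.201 without PARP1 KO DMSO replicate 3. TOP2A spread widely among the olaparib libraries, at 1515, 1346 and 1177 CPM, of which only the lowest reached the DMSO range. The log2 change of 0.17 had an adjusted P value of 0.232, and it became 0.08 (adjusted P = 0.518) without PARP1 KO olaparib replicate 1, 0.26 with an adjusted P value of 0.0115 without PARP1 KO olaparib replicate 3 and 0.17 with an adjusted P value of 0.0208 with no filter on low counts. SMC4 had 522, 494 and 470 CPM against 449, 447 and 440 CPM and changed by 0.15 (adjusted P = 0.0532), which passed the threshold with DESeq2 (0.0202), filterByExpr (0.0391), all 18 libraries in the fit (0.0330), without the PARP1 KO library that stood apart (0.0412) and without PARP1 KO olaparib replicate 3 (0.0222). The log2 changes of the other members, which did not pass the test, were 0.12 for NCAPD2 (0.08 without PARP1 KO olaparib replicate 1), 0.10 for NCAPD3, 0.02 for SMC2, 0.0027 for NCAPG2, -0.0041 for NCAPH2, -0.05 for NCAPH and -0.06 for TOP2B. At an adjusted P value below 0.05, 11 of 42 S phase markers were lower and 2 higher, and 3 of 51 G2/M markers were lower and 2 higher (all genes, 3.87% lower and 4.42% higher). None of either list was called.

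In the interaction of genotype and olaparib no member was called by edgeR or DESeq2 (all genes, 0.657% by edgeR), and 3 had an unadjusted P value below 0.05 (all genes, 15.7%). NCAPD2 alone passed an adjusted P value of 0.05 (1 of 10 members, compared with 0.912% of all genes), with a higher change in PARP1 KO cells by 0.28 (SE 0.072, adjusted P = 0.0285). This rested on changes of -0.15 in WT and 0.12 in PARP1 KO cells, and missed the threshold with 8 of the 12 libraries left out in turn, up to 0.0936 without WT olaparib replicate 2. TOP2B (0.23, adjusted P = 0.0586) passed with DESeq2 (0.00796), filterByExpr (0.0364), no filter (0.0409) and without PARP1 KO olaparib replicate 1 (0.0168), and TOP2A (0.27, adjusted P = 0.20) with no filter (0.00516) and without PARP1 KO olaparib replicate 3 (0.0240), whereas without PARP1 KO olaparib replicate 1 the TOP2A difference was 0.17 (adjusted P = 0.280). The other differences were 0.09 for NCAPG, 0.07 for NCAPD3 and NCAPH, 0.03 for SMC4, -0.06 for SMC2 and -0.07 for NCAPG2 and NCAPH2. Of the S phase markers 3 were called lower (all genes, 0.381%) and 23 were lower at an adjusted P value below 0.05 (all genes, 1.35%). Of the G2/M markers 1, CDCA3, was called higher (all genes, 0.276%), and 12 were higher and 1 lower at an adjusted P value below 0.05.

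Niraparib and olaparib were also compared in PARP1 KO cells. None of the members was called by edgeR or DESeq2 (all genes, 1.07% by edgeR), and 4 had an unadjusted P value below 0.05 (all genes, 22.1%). At an adjusted P value below 0.05, 3 members were lower with niraparib, compared with 5.73% of all genes. SMC4 differed by -0.26 (SE 0.048, adjusted P = 1.48e-03) and NCAPD2 by -0.22 (SE 0.050, adjusted P = 6.81e-03), each without overlap between the groups, as for 4 lower members in all (all genes, 12.9%), while NCAPH was higher without overlap (all genes, 12.1%). TOP2A differed by -0.32 (SE 0.080, adjusted P = 0.0224), but not without PARP1 KO niraparib replicate 2 (0.0736) or 3 (0.0558), or without PARP1 KO olaparib replicate 2 (0.0835). Differences that did not pass the test were -0.11 for NCAPD3, -0.10 for SMC2, -0.06 for TOP2B, -0.0018 for NCAPG, 0.01 for NCAPG2 and NCAPH2, and 0.10 for NCAPH. At an adjusted P value below 0.05, 11 of 51 G2/M markers were lower with niraparib (all genes, 5.73%) and none was higher, and of 42 S phase markers 7 were lower and 7 higher (all genes, 4.27% higher), with none of either list called.

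Without drug, PARP1 KO and WT cells did not differ in any member by the test. None was called by edgeR or DESeq2 (all genes, 0.146% by edgeR), none had an adjusted P value below 0.05 (all genes, 1.39%), and 1, SMC2, had an unadjusted P value below 0.05 (all genes, 13.6%). The log2 differences ran from -0.09 (SMC4) to 0.09 (SMC2), and the 95% confidence intervals were -0.24 to 0.07 for TOP2A and -0.19 to 0.02 for NCAPD2. The other log2 differences were 0.09 (NCAPG), 0.09 (TOP2B), 0.08 (NCAPG2), 0.02 (NCAPH), -0.02 (NCAPH2), -0.07 (NCAPD3), -0.08 (TOP2A) and -0.09 (NCAPD2). The libraries did not overlap for 3 members that were lower (SMC4, NCAPD2 and NCAPD3, compared with 9.59% of all genes) and 3 that were higher (TOP2B, SMC2 and NCAPG2, compared with 9.75%). Of 42 S phase markers none was called, 14 were higher in PARP1 KO cells at an adjusted P value below 0.05 (all genes, 0.811%) and 28 did not pass the test. Of 51 G2/M markers none was called, 2 were lower at that threshold (all genes, 0.584%) and none was higher.

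Ratios within a library do not depend on its scaling, and they are given as a description. TOP2A exceeded TOP2B by 4.70, 5.57 and 5.30 times on the RPKM scale in WT cells with DMSO, by 6.23, 5.61 and 6.0 times with olaparib, and by 2.73, 2.47 and 2.67 times with niraparib. In PARP1 KO cells the means were 4.62 ± 0.060 with DMSO, 5.45 ± 0.917 with olaparib and 4.51 ± 0.322 with niraparib (SD, n = 3). The 3 WT niraparib libraries were therefore the lowest of all 18. The summed non-SMC subunits of condensin I reached 0.720 ± 0.012 of those of condensin II in WT cells with DMSO, 0.610 ± 0.016 with olaparib and 0.438 ± 0.019 with niraparib. Here the olaparib libraries also lay below all DMSO libraries of the same genotype. The sum for condensin I went from 45.6 ± 1.33 to 25.8 ± 0.945 RPKM with niraparib, and that for condensin II from 63.3 ± 0.778 to 59.0 ± 0.757 RPKM. In PARP1 KO cells the ratio was 0.733 ± 0.017 with DMSO, 0.692 ± 0.038 with olaparib and 0.681 ± 0.013 with niraparib. The PARP1 KO niraparib libraries (0.666 to 0.689) also lay below all DMSO libraries of that genotype (0.717 to 0.751). The condensin II sum includes NCAPH2, whose RPKM may be too low because of its shared exon bases. SMC2 relative to SMC4 ranged from 0.518 to 0.661 over all libraries. With DMSO it was 0.521 to 0.568 in WT and 0.616 to 0.645 in PARP1 KO cells, and 0.557 to 0.583 with olaparib in PARP1 KO cells. NCAPD2 relative to SMC2, a ratio chosen after the values were seen, was 0.679 ± 0.011, 0.576 ± 0.017 and 0.285 ± 0.019 in WT cells with DMSO, olaparib and niraparib. In PARP1 KO cells it was 0.598 ± 0.0056, 0.643 ± 0.018 and 0.591 ± 0.0081 in the same order, so the DMSO levels of the genotypes differed as well.

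**Figure D3:**
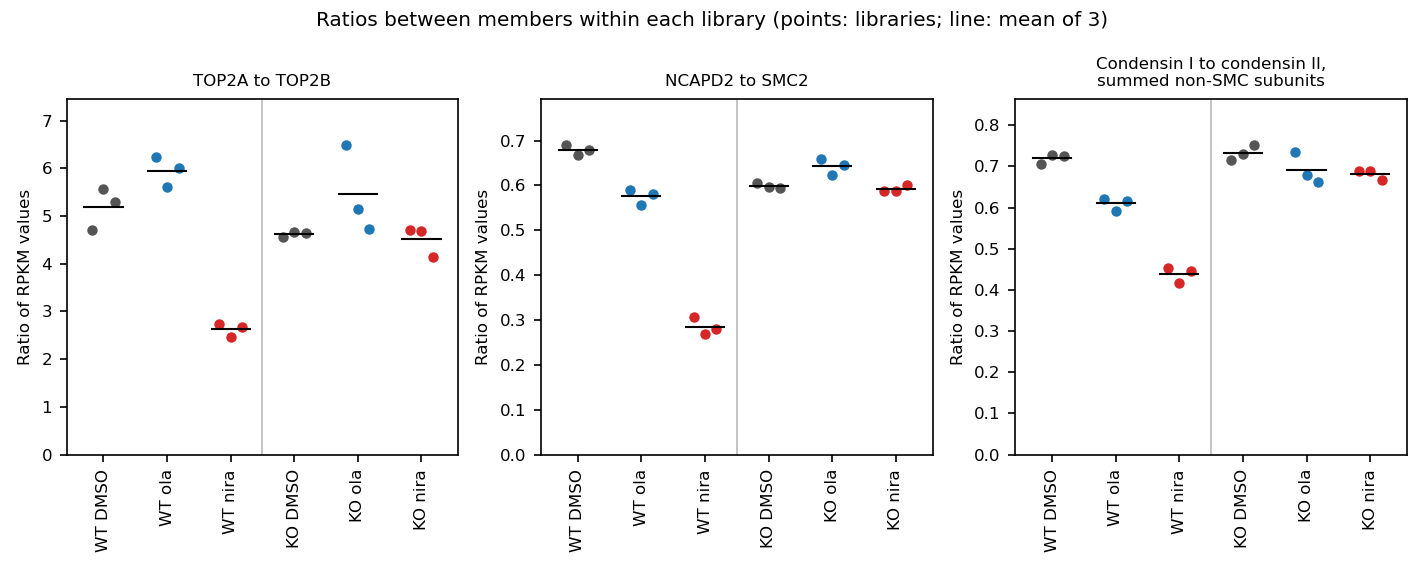
Ratios of RPKM values within each library (vertical axes, starting at 0) for TOP2A to TOP2B, NCAPD2 to SMC2 and the summed non-SMC subunits of condensin I to those of condensin II, by group (horizontal axes; ola, olaparib; nira, niraparib; KO, PARP1 KO). Points are libraries and lines are means of 3. In all 3 panels the WT niraparib libraries lie lowest, at means of 2.62, 0.285 and 0.438.

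Across libraries, TOP2A and NCAPD2 had a Pearson correlation of log2 levels of 0.99 over 18 libraries, the highest of any pair of members, and of 0.86 over the 15 libraries left without WT niraparib, where SMC4 and NCAPD3 stood at 0.87 (0.08 over 18). TOP2A and NCAPH gave 0.93 over 18 but -0.15 over 15 libraries, so their correlation was carried by the 3 WT niraparib libraries. For TOP2A and SMC2 the values were -0.32 and 0.62. The libraries share groups, scaling and in part the deviation described above, and these coefficients are descriptions. Among 11009 genes outside the members, the 5 most similar to TOP2A over 18 libraries were UBE2C (0.994), USP13 (0.993), TTK (0.989), CKAP2L (0.988) and NEK2 (0.988), and their coefficients over the 15 libraries were 0.83 to 0.90. TOP2B resembled other genes, among them PGR (0.987), U2SURP (0.982), KCTD3 (0.980) and ZNF710-AS1 (0.977), which kept 0.94 to 0.97 over the 15 libraries. The mean of SMC2, SMC4 and the condensin I subunits was closest to ATP6V1B2 (0.990), CEP55 (0.988), CCNA2 (0.987), GPSM2 (0.987) and DHTKD1 (0.986), with 0.87 to 0.92 over the 15 libraries. PGR encodes the progesterone receptor, while UBE2C, TTK, NEK2, CEP55 and CCNA2 act in mitosis or entry into it. Functions of the other similar genes, among them ATP6V1B2, USP13 and DHTKD1, were not examined.

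Related complexes are described for WT cells with niraparib by their counts, to be read beside the 18.1% of all genes that were lower and the 19.9% that were higher at an adjusted P below 0.05, and the 5.72% called lower and 8.10% called higher. None of the 10 cohesin genes, whose rings hold sister chromatids together, was called, but 7 were lower at an adjusted P value below 0.05, led by PDS5B (-0.47) and the kleisin RAD21 (-0.41), and the median was -0.26. MAU2, which loads cohesin with NIPBL, was higher by 0.26. Among 9 genes of mitotic cohesion and separation, 3 were lower and 4 higher at an adjusted P below 0.05, and securin PTTG1 (-1.65) and the centromere protector SGO2 (-1.08) were called lower and the acetyltransferase ESCO2 (0.94) was called higher. The 8 genes of the SMC5–SMC6 complex and its partners had no call and a median of -0.08, with 1 lower and 3 higher at an adjusted P value below 0.05. Of 4 other topoisomerase genes and the TOP3A partners RMI1 and RMI2 none was called, and TOP3A (0.45), the nuclear type I enzyme TOP1 (0.34) and the mitochondrial TOP1MT (0.21) were higher at an adjusted P value below 0.05.

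Among 8 genes that repair covalent topoisomerase adducts, 2 were lower and 4 higher at an adjusted P below 0.05, and TDP1, which acts mainly on TOP1 adducts, was called lower (-0.87) and RAD50 was called higher (0.77, at a mean of only 5.75 CPM). TDP2, which acts on TOP2 adducts, changed by 0.13 and did not pass the test (adjusted P = 0.107). The 12 condensin partners and regulators had a median of -0.49, with 8 lower and 2 higher at an adjusted P below 0.05 and 4 called lower, the kinase PLK1 (-2.46), cyclin B1 (CCNB1, -2.19), its kinase CDK1 (-1.17) and the chromosome coat protein MKI67 (-0.64). KIF4A, a chromosome kinesin that works with condensin I, and AURKB were lower by less (-0.50 and -0.51), while the condensin II inhibitor MCPH1 was higher (0.34, adjusted P = 5.49e-04). CDK1, MKI67 and AURKB are also among the G2/M markers. The 12 genes listed under cell cycle exit also include drivers of the cycle, namely CCND1, MYBL2 and FOXM1. Of the 12 genes, 5 were lower and 3 higher at an adjusted P below 0.05. The CDK inhibitor gene CDKN1A (2.23), MYBL2 (0.65) and LIN54 (0.65) were called higher, and CCND1 (-1.06) and RBL2 (-0.63) were called lower.

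The genotype by niraparib interaction was called for SGO2, PTTG1, ESCO2, TDP1, RAD50, PLK1, CCNB1, CDK1, MKI67, CDKN1A, MYBL2, LIN54, CCND1 and RBL2 from these lists, in a comparison that shares its WT libraries with the one above. The differences, PARP1 KO minus WT, were 2.33 for PLK1, 1.46 for PTTG1, 0.74 for TDP1 and -2.08 for CDKN1A. With niraparib in PARP1 KO cells no gene of these 7 lists, from cohesin to cell cycle exit, passed an adjusted P value of 0.05. With olaparib in WT cells the calls were CCNB1 (-0.70), PLK1 (-0.63), CDKN1A (1.18) and CCND1 (-0.77). The lists were chosen with earlier results of these data known, and nothing was tested across a list as a whole.

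**Figure D4:**
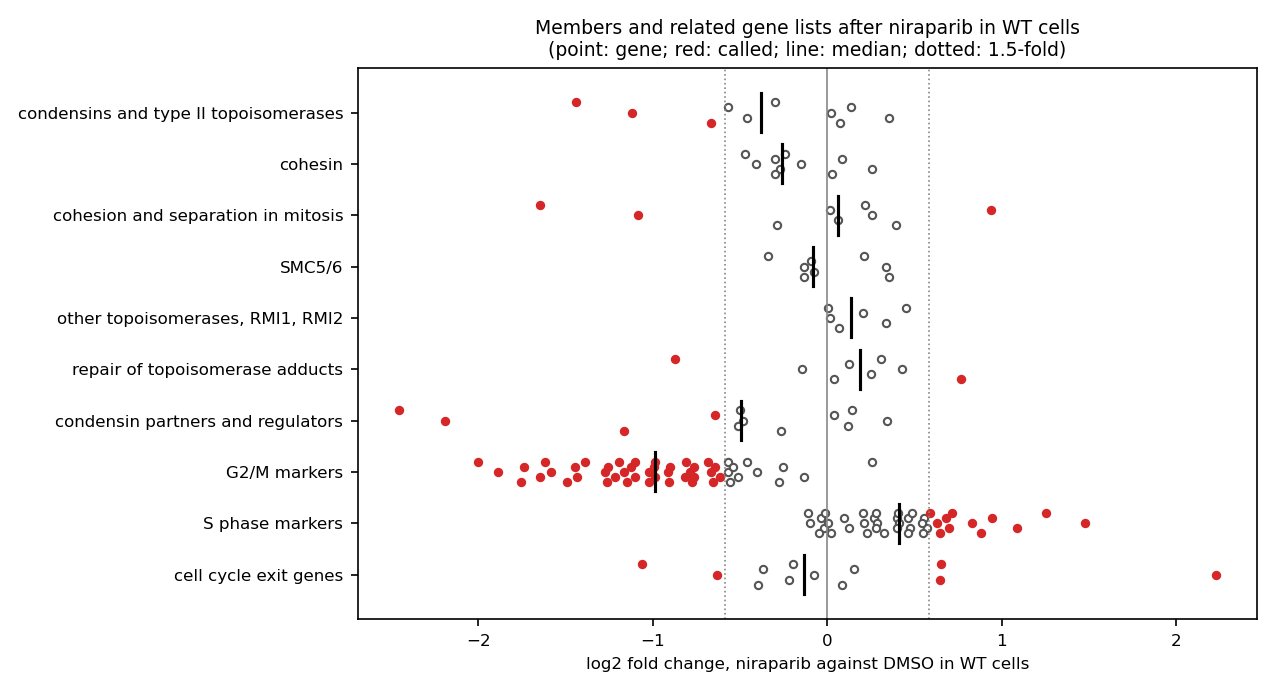
Log2 fold change for niraparib against DMSO in WT cells (horizontal axis) of the members and of the genes in 9 related lists (vertical axis), in which CDK1, MKI67 and AURKB appear in more than 1 list. Points are genes, red where called and open where not, black lines are medians and dotted lines mark 1.5-fold. The median is -0.38 for the members, -0.26 for cohesin, -0.49 for condensin partners and regulators, -0.99 for G2/M markers and 0.41 for S phase markers.

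The members lie apart from each other in the genome (GRCh38). TOP2A is at chr17:40388525-40417896 (minus strand), TOP2B at chr3:25597905-25664907 (minus), SMC2 at chr9:104094260-104141419 (plus) and SMC4 at chr3:160399274-160434954 (plus). NCAPD2 is at chr12:6493356-6531955 (plus), NCAPG at chr4:17810979-17844865 (plus) and NCAPH at chr2:96335766-96377091 (plus). NCAPD3 is at chr11:134150119-134225454 (minus), NCAPG2 at chr7:158631311-158704829 (minus) and NCAPH2 at chr22:50508224-50524780 (plus). Apart from NCAPH2, and TOP2B with 0.530%, no member shared exon bases with another gene of its strand.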

How the data were processed

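The deposited files hold raw counts per gene for 18 libraries, 3 per group. The authors produced these counts by Trimmomatic trimming, STAR mapping (GRCh38) and featureCounts 2.0.0, which counted primary, reverse-strand alignments over exons of the annotation of Ensembl release 96. Picard MarkDuplicates was also run, and whether duplicates were removed before counting is not settled by the sources used here. Reads that overlapped more than 1 gene of a strand were not counted, and of 58884 identifiers 58472 were matched to a symbol.

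Tests used edgeR 4.0.16 under R 4.3.3 (quasi-likelihood F test with TMM scaling) on genes whose counts summed to more than 10 in the libraries fitted, with Benjamini-Hochberg adjustment over all of them. The WT and the PARP1 KO comparisons used 9 libraries each, and the interactions and the genotype comparison used all 18. A call required a change above 1.5-fold together with an adjusted P below 0.05. CPM and RPKM values are counts scaled with TMM library sizes over 18 libraries, and correlations used log2(CPM + 0.5). The fits were tested on simulated data. Sampling noise was exceeded between the libraries of every group (chi-square per gene 3.14 to 19.1 over 18 pairs), so none was counted as a duplicate.

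All 10 members are named in every comparison, with values per library for those on which a result turns, together with called genes of related lists, up to 4 further genes per list and the 5 genes most like TOP2A, TOP2B and condensin I at a mean of at least 5 CPM. Of these similar genes, 1 is not reported here. Members and lists were chosen with earlier results of these data known. Alternatives were DESeq2 1.42.0, RLE size factors, filterByExpr or no count minimum, a block for replicate number, 1 fit over all 18 libraries, 2 other call rules, each library left out in turn and, added after seeing the data, 3 libraries that stood apart left out together. Promoter windows were taken from RefSeq.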

Additional observations from a re-analysis of the deposited data

Results flagged for a closer look

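Genes are listed here because the drug effect differed between the genotypes in an interaction test (edgeR, PARP1 KO minus WT, log2 scale). For niraparib the differences were 1.29 for TOP2A, 1.02 for NCAPD2, 0.71 for NCAPH, 0.38 for NCAPG, 0.34 for TOP2B, 0.29 for NCAPD3, -0.18 for SMC4, -0.22 for SMC2 and -0.35 for NCAPH2, with adjusted P values from 3.22e-13 (NCAPD2) to 0.0388 (SMC4). For olaparib the difference was 0.28 for NCAPD2 (adjusted P = 0.0285). Only 1 line per genotype was sequenced, so genotype and line cannot be told apart.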

How the results depend on the processing

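The number of members called was 3, 0, 2, 0, 0, 0, 0, 3 and 0 in the 9 comparisons, in the order of niraparib, olaparib and niraparib against olaparib in WT, the same in PARP1 KO, the genotypes without drug, and the niraparib and olaparib interactions. The numbers were equal with RLE size factors, filterByExpr, no filter on low counts, DESeq2, all 18 libraries in a fit (within-genotype comparisons) and the replicate block, and with each library left out, except for 4 in WT with niraparib without WT DMSO replicate 1, WT niraparib replicate 3 or the libraries that stood apart. With no fold minimum, 8, 3 and 7 members passed in WT, 1 (olaparib) and 3 (niraparib against olaparib) in PARP1 KO, and 9 and 1 in the interactions. Above 2-fold, 2 members (TOP2A and NCAPD2) passed for niraparib in WT and in its interaction, and 1 (TOP2A) between the drugs in WT.

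Within a genotype, same-numbered libraries had residual correlations of -0.56 to 0.58, with 5 of 18 pairs above 0.1, so the numbers do not pair them. The 3 libraries that stood apart carry different numbers and correlated at 0.63 to 0.67. With the replicate block, NCAPD2 in WT with olaparib changed by -0.16 (adjusted P = 0.0593) and NCAPG in PARP1 KO with olaparib by -0.19 (adjusted P = 0.0601).

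Signs turned only for members near 0 that did not pass the test. With no filter, NCAPH2 with niraparib was -8.09e-06 and NCAPG2 with olaparib -0.0049, and with filterByExpr NCAPG between the drugs was 0.0011, all in PARP1 KO. With the 3 libraries that stood apart left out, an alternative chosen after seeing the data, NCAPG2 was -0.027 in WT with niraparib, -0.0045 in PARP1 KO with olaparib and 0.047 in the niraparib interaction, NCAPH was -0.0077 between the genotypes, and in PARP1 KO NCAPD3 was 0.0030 and NCAPH2 -0.022 with niraparib, and NCAPG 0.042 and NCAPH2 -0.010 between the drugs. Leaving out 1 library at a time, NCAPG2 in WT with niraparib ranged from -0.0054 to 0.045. In PARP1 KO with niraparib the ranges were -0.036 to 0.0030 for NCAPD3, -0.00018 to 0.025 for NCAPG2 and -0.052 to 0.080 for NCAPH2. With olaparib they were -0.0070 to 0.050 for SMC2, -0.035 to 0.0198 for NCAPG2 and -0.081 to 0.068 for NCAPH2. Between the drugs they were -0.043 to 0.042 for NCAPG, -0.0018 to 0.052 for NCAPG2 and -0.058 to 0.092 for NCAPH2. Without drug, PARP1 KO minus WT gave -0.0035 to 0.046 for NCAPH and -0.090 to 0.034 for NCAPH2. The interactions gave -0.049 to 0.016 for NCAPG2 (niraparib), and -0.0086 to 0.066 for SMC4 and -0.14 to 0.0056 for NCAPH2 (olaparib).

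Over all genes, 3 were called in PARP1 KO with niraparib, against 24 with no filter, 8 with DESeq2 and 6 with all 18 libraries, and 2 under filterByExpr or the block. Olaparib in PARP1 KO gave 177, but 100 or 107 without replicate 2 or 3 of PARP1 KO DMSO and 113 without PARP1 KO olaparib replicate 2. The drugs there gave 236, but 144 without PARP1 KO niraparib replicate 2. The genotypes without drug gave 36, but 102 with no filter, 12 without the libraries that stood apart, 5 without WT DMSO replicate 1, and 12, 11 and 16 without replicate 1, 2 or 3 of PARP1 KO DMSO. The olaparib interaction gave 162, but 346 with no filter, 86 without WT DMSO replicate 1, 107 and 93 without replicate 1 or 2 of WT olaparib, and 273, 93 and 104 without replicate 1, 2 or 3 of PARP1 KO olaparib. The causes were not tested.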

Other observations

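Values of single cell cycle markers are given for WT cells with niraparib (log2 fold change against DMSO, n = 3 per group, edgeR). Of the S phase list, DTL (1.48), EXO1 (1.25), CLSPN (1.09), POLA1 (0.94), CCNE2 (0.88) and BRIP1 (0.83) were called higher, whereas PCNA (-0.05), TYMS (-0.10) and MCM6 (-0.03) did not pass the test. DTL marks replication licensing factors for destruction, CLSPN carries the checkpoint signal at stalled forks and POLA1 starts new strands. Of the G2/M list, PSRC1 (-2.00), BUB1 (-1.89), AURKA (-1.76) and PIMREG (-1.74) were called lower, and CTCF (0.26), an architectural DNA-binding protein that works with cohesin, was the 1 gene of the list that was higher at an adjusted P value below 0.05.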
